A study of Rattus norvegicus with 64 samples.

Results

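The semaphorins, plexins and neuropilins are the ligands and receptors of a guidance system that steers growing axons, dendrites and vessels. They were taken as every gene whose identifier begins with Sema3 to Sema7, Plxna, Plxnb, Plxnc, Plxnd or Plxd, or is Nrp1 or Nrp2, which gave 28 of 17260 annotated genes. These are 19 semaphorins (7 of class 3, 6 of class 4, 2 of class 5, 3 of class 6 and Sema7a), 7 receptors (Plxna2, Plxna3, Plxnb2, Plxnb3, Plxnd1, Nrp1 and Nrp2) and 2 plexin domain containing genes (Plxdc1 and Plxdc2), which are named like plexins but were counted apart from the receptors. Plxna1, Plxna4, Plxnb1, Plxnc1 and Sema6a are not among the identifiers of the annotated genes counted, so they were not analysed here. Total RNA from Long Evans rats, for which the labels give no allele or agent, was sequenced after depletion of ribosomal RNA. The tissue was layer II (LII) or the deeper layers (LIII to LVI, LDeep) of the medial (MEC) or lateral (LEC) entorhinal cortex, cut from slices by eye under a microscope. Animals were taken at postnatal day 2 (P2), P9, P23 or P45, with 5, 4, 3 and 4 samples of each layer of each region at these ages, which makes 64 libraries. The labels number the replicates but do not say whether samples with the same number came from 1 animal. In the paper, numbers on its microRNA samples mark LII and LDeep of the same animal, but it does not say so for these libraries. The main fits treated all samples as separate, so p-values measure the spread between these samples.

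Class 3 semaphorins are secreted and bind neuropilins, which have a short intracellular part and signal through a plexin partner, usually of type A. Sema3e is the exception in that it can bind Plxnd1 directly. Semaphorins of classes 4 to 6 span the membrane, with type B plexins as receptors for most of class 4 and type A plexins for class 6, and Sema7a is held to the membrane by a lipid anchor. In cortex this system is known from axon repulsion, dendrite growth, pruning and, later, from synapses, myelinating glia and blood vessels.

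Between 3894334 and 11439143 read pairs per library were counted on genes (median 7569157.5), so that 1 count stood for 0.0874 to 0.257 CPM (counts scaled to a common library total). All 28 members passed the filter on low counts, and the lowest count of any member in any library was 13. The layers were checked with marker genes. Reln, a marker of entorhinal LII neurons, was higher in LII in 15 of 16 same-numbered pairs of MEC libraries and in 16 of 16 of the LEC, and Fezf2, a transcription factor of deep-layer neurons, was higher in LDeep in 16 of 16 pairs of either region. Other markers followed the labels less fully. Calb1, also an LII marker, was higher in LII in 13 of 16 pairs of the MEC and 14 of 16 of the LEC. Of the deep-layer genes, Foxp2 was higher in LDeep in 14 of 16 pairs of either region. Etv1 was so in 16 of 16 of the MEC and 15 of 16 of the LEC. The exception for Reln was replicate 1 of the MEC at P2, with a log2 CPM of 9.32 in the library labelled LII and 9.49 in that labelled LDeep, while Foxp2 read 4.22 and 3.17. The MEC exceptions for Calb1 were replicates 1, 2 and 3 of P2, at 5.52, 6.07 and 5.91 in LII and 5.85, 6.50 and 6.02 in LDeep. The summed level of 12 genes of meningeal fibroblasts, cells of the membrane that covers LII, was 33.5, 1539, 49.2, 1635 and 854 CPM in the libraries labelled LII of the MEC at P2 (replicates 1 to 5) and 1294, 91.6, 53, 69.9 and 70.05 CPM in those labelled LDeep. Replicate 1 thus stood apart in both layers, and the library labelled LII of replicate 3 had no more meningeal RNA than its LDeep partner and more Foxp2 (5.48 against 3.22). Other markers of replicate 3 followed the labels, with Reln at 9.93 in LII against 7.90 in LDeep and Fezf2 at 5.14 against 6.02. The sum of 7 deep-layer genes was lower in LII in both replicates. It was 375.7 against 518.1 CPM in replicate 1 and 430.5 against 692.6 CPM in replicate 3. Groups follow the labels throughout, and the counts of members over the layer, age and region comparisons that use MEC samples are also given without the 4 MEC libraries of P2 replicates 1 and 3, a choice made after seeing these values. The LEC LII library of P9 replicate 2 also stood apart, with 999 CPM of 10 oligodendrocyte genes against 144 to 221 CPM in the other LEC LII libraries of P2 and P9.

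The order of the members by level per exon length differed between ages. On the log2 RPKM scale (reads per kilobase of exon, scaled to the library's total), averaged over the 64 libraries, 6 of 7 receptors but 4 of 19 semaphorins stood among the first 11 members, with a median level of 4.46 for the receptors and 3.26 for the semaphorins. The limit of 11 lies at the last of these 6 receptors, Plxna3, while Plxnb3 had rank 27, and the counts depend on this limit. At P2 the first 11 held 6 receptors in each of MEC LII, MEC LDeep, LEC LII and LEC LDeep, and at P45 they held 4, 2, 4 and 3. In MEC LDeep, Plxna2 and Nrp1 were those left at P45, beside 8 semaphorins. Over the 64 libraries the order was led by Plxdc2 (4.93 ± 0.51, SD over 64 libraries), Sema6b (4.92 ± 0.29) and Sema7a (4.83 ± 0.73). Plxnd1 (4.57 ± 0.84), Plxnb2 (4.48 ± 0.54), Plxna2 (4.47 ± 0.54) and Nrp2 (4.46 ± 1.32) followed within less than their SDs of each other. Sema3d (1.68 ± 0.87), Plxnb3 (1.44 ± 1.56) and Plxdc1 (1.14 ± 1.02) came last. Neighbours in this order differed by less than their SDs. Over the 64 libraries Sema4f (4.43 ± 0.28) and Sema6b varied least, and Plxnb3, Sema6c (3.26 ± 1.4), Nrp2 and Sema3c (3.88 ± 1.29) most.

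The first comparison asked which members differed between LII and LDeep, with the 4 ages weighted equally. Class 3 split in opposite directions. Sema3c and Sema3e were higher in LDeep, Sema3a, Sema3b, Sema3d and Sema3g were higher in LII, and Sema3f did not pass the test, in both regions alike. In all, 18 of 28 members passed in the MEC (9 higher in LII and 9 higher in LDeep), beside 38% of all genes tested (19.7% and 18.3%), and 14 in the LEC (5 and 9), beside 37.7% (18.5% and 19.2%). Without the 4 doubted libraries 18 members passed in the MEC (8 and 10), beside 43.9% of all genes. Without replicate 1 of P23 the MEC count was 11. Here and below, the share of all genes is not given for fits with 1 replicate left out. In the main fits both regions called 13 members in the same direction, and the share of all genes called so in both was not counted. In these bulk samples, fewer cells that express a gene and less RNA per cell cannot be told apart.

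Sema3c, a secreted ligand that binds both neuropilins, had the largest layer difference. At P9 its log2 CPM was 5.28, 5.05, 5.03 and 4.67 in the 4 MEC LII libraries and 8.42, 8.45, 7.79 and 8.70 in the 4 MEC LDeep libraries. In the LEC at this age the values were 5.06, 5.22, 4.68 and 4.68 in LII and 7.69, 7.41, 7.58 and 6.89 in LDeep. The layers did not overlap at P9 in either region. Over all ages the log2 fold change (LFC, LII minus LDeep) was -2.27 (SE 0.21, adjusted p = 3.74e-09) in the MEC and -2.18 (SE 0.17, adjusted p = 5.07e-12) in the LEC. It was higher in LDeep in 15 of 16 same-numbered pairs of the MEC, the exception being P2 replicate 1, and in 16 of 16 of the LEC.

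Sema3e, the ligand of Plxnd1, followed the same direction. At P23 it stood at 4.96, 4.99 and 4.72 in MEC LII against 6.77, 6.79 and 6.83 in MEC LDeep, and at 4.54, 3.86 and 3.99 against 6.14, 6.81 and 7.06 in the LEC, all on the log2 CPM scale. These layers did not overlap. Its LFC over the ages was -1.80 (SE 0.15, adjusted p = 8.90e-10) in the MEC, with LDeep higher in 16 of 16 pairs, and -1.85 (SE 0.15, adjusted p = 7.47e-12) in the LEC, with LDeep higher in 15 of 16 pairs.

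Among the class 3 genes that were higher in LII, Sema3a, the repellent that acts through Nrp1, had an LFC of 1.22 (SE 0.17, adjusted p = 2.82e-06) in the MEC and 1.09 (SE 0.11, adjusted p = 7.53e-10) in the LEC. Its log2 CPM at P9 was 5.43, 5.22, 5.29 and 4.98 in MEC LII and 3.42, 3.44, 3.88 and 3.35 in MEC LDeep, and 6.03, 6.32, 5.66 and 6.51 in LEC LII and 4.87, 4.93, 4.90 and 5.63 in LEC LDeep. The MEC layers were fully apart at this age, and the lowest LEC LII library stood just above the highest LEC LDeep library. Sema3d, another neuropilin ligand, had an LFC of 0.99 (SE 0.19, adjusted p = 1.59e-04) in the MEC and 1.27 (SE 0.14, adjusted p = 5.68e-09) in the LEC. Its P9 values were 5.15, 4.60, 5.00 and 4.49 in MEC LII and 3.52, 3.46, 3.47 and 3.09 in MEC LDeep, and 5.02, 5.50, 4.49 and 5.10 and 3.31, 3.31, 3.41 and 2.45 in the LEC. Here too no LDeep library reached the lowest LII library. In the LEC, LII was higher in 16 of 16 pairs for both genes, and in the MEC in 14 of 16. Sema3g, known from endothelial cells, was smaller in effect, at 0.67 (SE 0.12, adjusted p = 7.62e-05) in the MEC and 0.39 (SE 0.10, adjusted p = 0.00219) in the LEC.

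Sema3c, Sema3e, Sema3a and Sema3d lie in this order on the minus strand of chromosome 4 of Rn6, at chr4:14318276-14488225, chr4:17316925-17594598, chr4:18178854-18395165 and chr4:19224378-19413519, so nearby genes of 1 family differed between layers in opposite directions. The promoters (250 bases before to 50 bases after the start of the gene) of Sema3c, Sema3e and Sema3d are printed because they belong to nearby genes with opposite layer differences. They come from RefSeq on build GRCr8, whose positions differ from those of Rn6, and 20 of 28 members had an entry. Capitals mark matches, on either strand, to a GC box (GGGCGG, held by 33.1% of the 33469 promoters of the same length), a CCAAT box (CCAAT, 37.5%), the E-box CACGTG (6.42%) or the letters TATAAA (14.2%). The motifs were searched one by one, and overlapping matches were kept. The Sema3c promoter is at chr4:18699578-18699877 (minus strand), that of Sema3e at chr4:21510325-21510624 (minus strand) and that of Sema3d at chr4:23460922-23461221 (minus strand).
Sema3c: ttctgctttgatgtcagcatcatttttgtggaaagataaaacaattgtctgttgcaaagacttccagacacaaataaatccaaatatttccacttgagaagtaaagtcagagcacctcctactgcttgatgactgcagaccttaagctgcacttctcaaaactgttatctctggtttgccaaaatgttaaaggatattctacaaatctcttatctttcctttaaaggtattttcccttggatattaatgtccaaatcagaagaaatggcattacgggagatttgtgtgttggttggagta
Sema3e: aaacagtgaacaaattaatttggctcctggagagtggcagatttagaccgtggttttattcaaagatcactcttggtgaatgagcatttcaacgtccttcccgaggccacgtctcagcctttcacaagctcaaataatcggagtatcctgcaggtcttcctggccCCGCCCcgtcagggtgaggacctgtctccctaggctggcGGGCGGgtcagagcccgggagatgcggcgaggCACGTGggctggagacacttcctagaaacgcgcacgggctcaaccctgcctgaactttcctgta
Sema3d: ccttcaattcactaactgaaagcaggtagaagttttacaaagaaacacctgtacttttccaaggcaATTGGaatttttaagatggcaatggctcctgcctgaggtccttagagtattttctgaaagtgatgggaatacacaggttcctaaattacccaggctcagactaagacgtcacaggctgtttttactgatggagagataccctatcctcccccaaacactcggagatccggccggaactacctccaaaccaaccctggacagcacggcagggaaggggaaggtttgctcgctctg
None of the 4 motifs was found in the Sema3c window, which held 1 CG pair and 36.3% G and C. The Sema3e window held 16 CG pairs, 2 GC boxes and 1 CACGTG, and the Sema3d window 6 CG pairs and 1 CCAAT box. The median over all promoters was 7 CG pairs.

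Of the membrane-bound semaphorins, 4 of 6 genes of class 4 were higher in LDeep in both regions. Sema4a, which binds type B plexins and Plxnd1, had the largest difference, at -0.67 (SE 0.09, adjusted p = 1.24e-06) in the MEC and -0.56 (SE 0.07, adjusted p = 3.79e-08) in the LEC, with LDeep higher in 14 and 16 of 16 pairs. Sema4d, a ligand of type B plexins that myelinating glia also make, had an LFC of -0.50 (MEC) and -0.47 (LEC). Sema4f and Sema4g were lower in LII by smaller amounts (-0.23 and -0.33 in the MEC, -0.28 and -0.47 in the LEC). Sema4b passed only in the MEC (0.20), a call lost without the doubted libraries, and Sema4c in neither region. In class 5, Sema5b was lower in LII of the LEC (-0.48, SE 0.15, adjusted p = 0.00971), and in the MEC it passed only without the doubted libraries (-0.29, SE 0.12, adjusted p = 0.0445). In class 6, Sema6b had LFCs of -0.22 (MEC) and -0.33 (LEC), Sema6d was higher in LII of the MEC only (0.23), and neither Sema6c nor Sema7a differed between layers beyond the spread.

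On the receptor side, Plxnd1, the plexin that binds Sema3e and is also known from endothelial cells, was higher in LII, opposite to its ligand. At P23 its log2 CPM was 7.33, 7.58 and 7.20 in MEC LII and 5.97, 5.93 and 5.45 in MEC LDeep, and 7.35, 7.15 and 7.14 and 6.66, 6.75 and 5.64 in the LEC. Neither region had an LDeep library as high as an LII library at this age, but with 3 libraries per layer the test at P23 passed in the MEC (1.59) and not in the LEC (0.75). At the other ages it passed in the MEC at P9 (1.05) and P45 (1.21) but not at P2 (-0.01). In the LEC it passed at P2 (0.99) but not at P9 (0.69) or P45 (0.87). Its LFC was 0.96 (SE 0.16, adjusted p = 2.55e-05) in the MEC and 0.82 (SE 0.17, adjusted p = 2.03e-04) in the LEC, with LII higher in 13 and 16 of 16 pairs. Plxnb3, a receptor of Sema5a, was higher in LDeep (-0.40 (SE 0.15, adjusted p = 0.0444) in the MEC and -0.69 (SE 0.16, adjusted p = 9.45e-04) in the LEC). Plxna2 (-0.37) and Plxnb2 (0.26) passed in the MEC only, the latter not without the doubted libraries. The neuropilins did not pass in either region, with LFCs of 0.18 and -0.02 for Nrp1 and 0.03 and 0.10 for Nrp2 in the MEC and LEC, although Nrp1 passed in the MEC without the doubted libraries (0.21, SE 0.08, adjusted p = 0.0255). Plxdc1, known as an endothelial marker of tumours, was higher in LII of the MEC (0.63, SE 0.12, adjusted p = 9.37e-05) but not of the LEC (-0.00, SE 0.21, adjusted p = 0.998). The difference of this layer effect between regions did not pass (adjusted p = 0.074), but it did without the doubted libraries (0.67, SE 0.19, adjusted p = 0.0462) and with limma voom.

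Markers of other cell types moved with the layer. Of 12 genes of meningeal fibroblasts 11 were higher in LII in either region, with a median LFC of 3.07 (MEC) and 4.63 (LEC), and their summed level ranged from 33.5 to 1930 CPM in MEC LII and from 829 to 1830 CPM in LEC LII, against 31.2 to 247 CPM in LEC LDeep. Of these 12, 6 (Lum, Col1a2, Ogn, Aldh1a2, Slc22a6 and Fmod) were at 0 in at least 1 library. All 10 endothelial genes were higher in LII in both regions (median LFC 0.73 and 1.05), none being at 0 in any library, and so were 6 of 7 astrocyte genes (0.95 and 0.79). Of 7 genes of mural cells, the contractile cells of vessel walls, 7 were higher in LII of the MEC and 6 in LII of the LEC (median LFC 0.81 and 0.97), with a summed level of 111 to 555 CPM in MEC LII and 82.9 to 240 CPM in MEC LDeep, and Acta2 at 0 in at least 1 library. Of 10 oligodendrocyte genes, 6 were lower in LII of the MEC, and 4 lower and 2 higher in LII of the LEC, beside Plxnb3 and Sema4d. The part of any of these cells in the layer differences of Sema3a, Sema3b, Sema3d, Sema3g, Sema4d, Plxnb3, Plxnd1 and Plxdc1 was not tested.

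**Figure D1:**
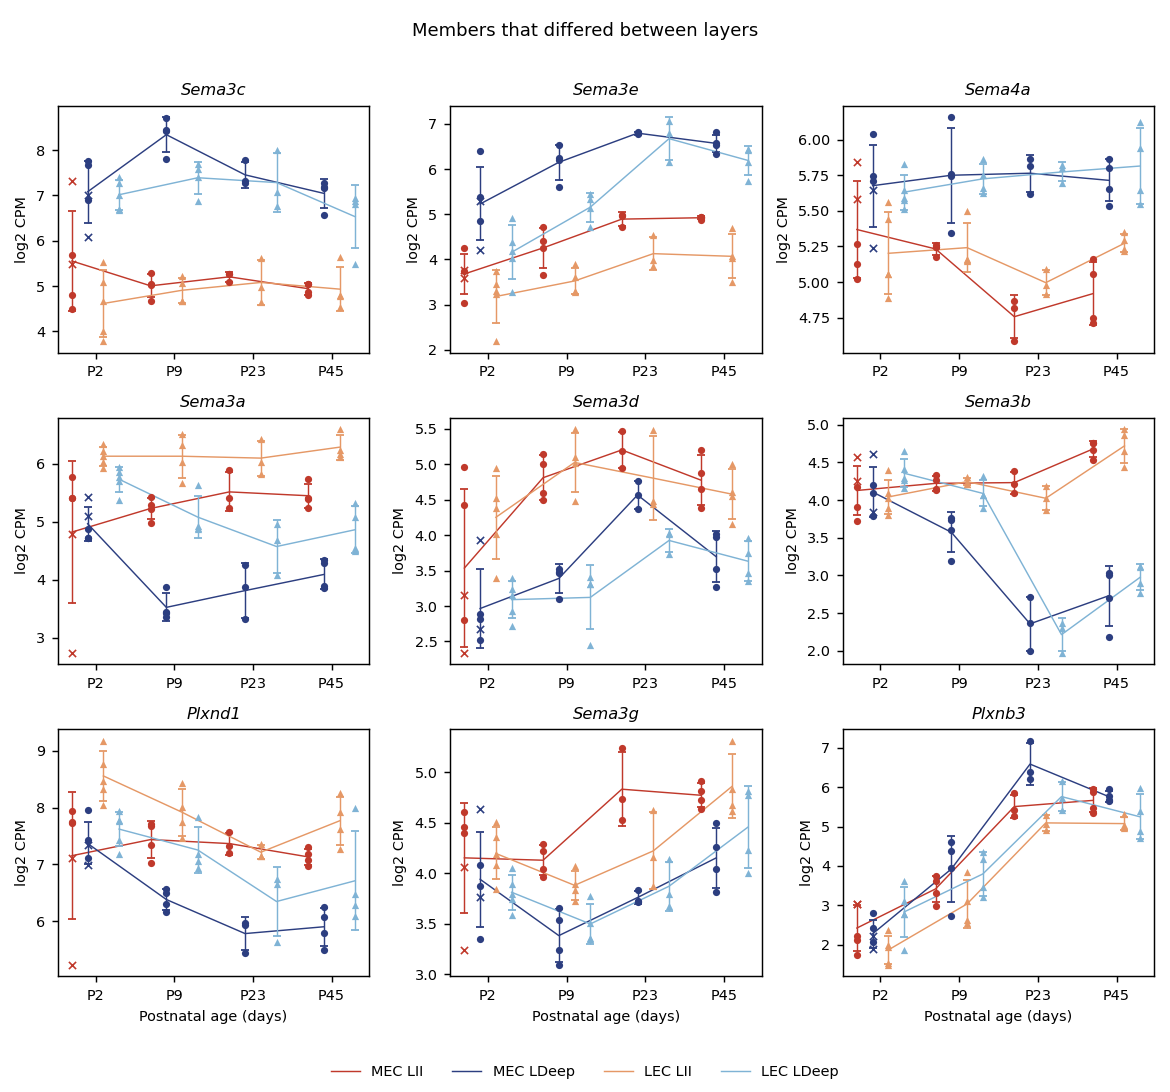
Log2 CPM (vertical axis) of 9 members at P2, P9, P23 and P45 (horizontal axis), with 1 point per library, circles for the MEC, triangles for the LEC, and crosses for the 4 MEC libraries of P2 replicates 1 and 3. Lines join group means and bars are SDs, with 3 to 5 libraries per group. Sema3c and Sema3e lie higher in LDeep and Sema3a, Sema3d and Plxnd1 higher in LII, except that the MEC means of Sema3a and Plxnd1 at P2 lie lower in LII. The layers of Sema3b meet at P2 and separate later.

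Each single age rests on 3 to 5 libraries per layer. In the MEC the counts of members that passed were 3, 7, 12 and 8 at P2, P9, P23 and P45 in turn, beside 4.39%, 12.5%, 13% and 11.6% of all genes. In the LEC the counts were 6, 6, 8 and 8, beside 12.9%, 17.1%, 14.3% and 16%. Sema3c and Sema3e passed at every age in both regions. The MEC count at P2 depended on the doubted libraries. Without them 9 members passed at that age, beside 15.8% of all genes, and 9, 12 and 10 at the later ages, beside 21.5%, 20.1% and 17.7%. Sema3c then had an LFC at P2 of -2.44 (SE 0.27, adjusted p = 2.12e-06) in place of -1.27 (SE 0.35, adjusted p = 0.0378). Sema3a moved from 0.11 (SE 0.29, adjusted p = 0.852) to 0.75 (SE 0.20, adjusted p = 0.0132) and Sema3d from 0.79 (SE 0.35, adjusted p = 0.178) to 1.55 (SE 0.35, adjusted p = 0.00361). Leaving out replicate 3 of P23 lowered the MEC count at that age from 12 to 3, and leaving out replicate 1 or 4 of P9 lowered that at P9 from 7 to 3 (4 without replicate 2 or 3). The MEC count at P45 was 4 without replicate 1 and 5 without replicate 3 of that age, that at P2 was 5 without replicate 1 and 1 without replicate 4, and in the LEC the count at P2 was 3 without replicate 4 and that at P45 was 5 without replicate 3. Without the share of all genes in these fits, such moves cannot be told from moves shared by many genes.

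Sema3b, a secreted semaphorin best known as a tumour suppressor gene, was the member whose layer difference grew with age in both regions. At P2 the layers overlapped, with log2 CPM of 3.80, 3.90, 4.09, 4.02 and 4.40 in LEC LII and 4.29, 4.16, 4.65, 4.26 and 4.41 in LEC LDeep. By P23 the values were 4.18, 4.02 and 3.87 in LEC LII and 2.37, 2.31 and 1.97 in LEC LDeep, and 4.21, 4.09 and 4.39 in MEC LII and 2.00, 2.37 and 2.71 in MEC LDeep. At this age all LII libraries lay above all LDeep libraries of their region. The layer difference at P23/P45 exceeded that at P2/P9 by 1.62 (SE 0.21, adjusted p = 2.86e-05) log2 units in the MEC and 1.86 (SE 0.15, adjusted p = 1.14e-09) in the LEC. This came with a fall in LDeep, where the LFC between older and younger ages was -1.34 (SE 0.15, adjusted p = 1.28e-08) in the MEC and -1.64 (SE 0.11, adjusted p = 9.35e-14) in the LEC, while the LII values of 0.29 and 0.22 did not pass. The other member to pass was Sema3e in the LEC, where the layer difference changed by -1.05 (SE 0.29, adjusted p = 0.0332), that is, LDeep gained more. In all, 1 member passed in the MEC and 2 in the LEC, beside 3.52% and 4.02% of all genes. Without the doubted libraries Plxnd1 (0.75), Plxdc1 (0.76) and Plxnb2 (0.68) joined Sema3b in the MEC, beside 6.53% of all genes. The MEC count was 3 without replicate 1 or 4 of P2 and 2 without replicate 2 or 3 of P2, and the LEC count was 1 without replicate 1, 3 or 5 of P2, replicate 1, 2 or 4 of P9, or replicate 3 of P23.

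The comparison of the older (P23 and P45) with the younger (P2 and P9) animals asked how the system changes over the period in which entorhinal circuits mature. Receptors mostly fell. Both neuropilins, Plxna3 and Plxnb2 fell in both layers of both regions, Plxnd1 fell in 3 of these 4 comparisons, and Plxnb3 alone among the receptors rose. The semaphorins were divided, with Sema6c, Sema4b, Sema4c, Sema4g, Sema3f and Sema5b falling and Sema7a and Sema3e rising in all 4 comparisons, as did Plxdc1 and Plxdc2. In all, 20 of 28 members passed in MEC LII (8 up, 12 down), 21 in MEC LDeep (8 up, 13 down), 18 in LEC LII (6 up, 12 down) and 24 in LEC LDeep (10 up, 14 down). The shares of all genes tested were 64.8%, 65%, 65.1% and 66.7%, with 33.6%, 31.5%, 32.6% and 35.5% up and 31.2%, 33.5%, 32.5% and 31.2% down. The share of all genes that rose or fell in all 4 comparisons was not counted. Age moved most genes, and whether the members passed more often than all genes was not tested in any comparison. In LEC LII the share of members was no higher than this background. Without the doubted libraries 23 members passed in either layer of the MEC, beside 67.1% and 67.5% of all genes. With the layers and regions summed for each replicate number, 24 members passed, beside 77.3% of all genes. The median LFC of the members lay below that of all genes in each comparison, at -0.20 against 0.01 in MEC LII, -0.41 against -0.03 in MEC LDeep, -0.20 against -0.00 in LEC LII and -0.28 against 0.05 in LEC LDeep.

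Nrp2, the neuropilin preferred by Sema3f, had the steepest fall of the receptors. Its log2 CPM at P2 was 7.69, 8.0, 7.94, 7.77 and 8.21 in MEC LII and 7.49, 8.26, 7.82, 8.22 and 8.46 in LEC LII. At P45 it was 5.11, 4.94, 4.86 and 4.34 in MEC LII and 5.37, 5.67, 5.16 and 5.50 in LEC LII. Every P45 library was below every P2 library. The LFC was -2.09, -1.95, -2.39 and -1.89 in MEC LII, MEC LDeep, LEC LII and LEC LDeep, with adjusted p of at most 9.96e-10. Most of the fall came before P9 in the MEC, where the step from P2 to P9 was -2.05 (SE 0.21, adjusted p = 6.87e-08) in LII and -2.22 (SE 0.22, adjusted p = 8.89e-09) in LDeep. In the LEC the step from P9 to P23 was the larger, at -2.10 (SE 0.31, adjusted p = 2.54e-06) in LII. Nrp1, its partner in semaphorin binding and a co-receptor for VEGF, fell less, with LFCs of -0.48, -0.68, -0.84 and -0.56 in the same order. Its called steps all lay between P2 and P9.

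Plxna3, a signalling partner of the neuropilins, fell with LFCs of -1.73, -1.64, -1.54 and -1.26 (adjusted p of at most 1.64e-05). In MEC LII it stood at 8.01, 8.33, 8.19, 8.41 and 7.49 at P2 and 6.23, 5.86, 5.53 and 6.24 at P45, without overlap. Plxnb2 fell with LFCs of -0.41, -0.98, -0.31 and -0.48, its value in LEC LII having an adjusted p of 0.0461. Plxnd1 fell in MEC LDeep (-1.04, SE 0.23, adjusted p = 2.48e-04), LEC LII (-0.79) and LEC LDeep (-0.76), and in MEC LII its LFC of -0.16 did not pass. The MEC LII value includes the doubted library of P2 replicate 1, at a log2 CPM of 5.23 against 7.11 to 7.94 in the other MEC LII libraries of P2. Plxna2 passed in MEC LDeep only (-0.62, SE 0.19, adjusted p = 0.00588).

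Plxnb3 rose more than any other member. At P2 its log2 CPM was 3.03, 1.73, 3.03, 2.22 and 2.11 in MEC LII and 1.88, 2.07, 2.22, 2.79 and 2.41 in MEC LDeep. At P45 it was 5.88, 5.48, 5.34 and 5.97 and 5.68, 5.95, 5.66 and 5.77. In both layers every P45 library was above every P2 library. The LFC was 2.66, 3.07, 2.60 and 2.21 in MEC LII, MEC LDeep, LEC LII and LEC LDeep (adjusted p of at most 2.29e-10). Both steps up to P23 passed in all 4 comparisons, the larger being from P9 to P23 (2.14, 2.60, 1.95 and 1.99), and no step from P23 to P45 did. Plxnb3 is known from oligodendrocytes. Beside it, all 10 oligodendrocyte genes rose in each comparison, with median LFCs of 6.02, 7.07, 3.42 and 6.0 and a summed level in MEC LDeep of 119 to 270 CPM at the younger and 6660 to 16000 CPM at the older ages. Mog, Mobp, Opalin and Ermn were at 0 in at least 1 library. The part of these cells in the rise of Plxnb3 was not tested.

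Plxnb3 and its fellow receptor Plxna3 both lie on the minus strand of chromosome X of Rn6, Plxna3 at chrX:156363403-156379189 and Plxnb3 at chrX:157015297-157028434, and they changed with age in opposite directions. Their RefSeq promoters on GRCr8 are printed for that reason, at chrX:157266857-157267156 (plus strand) for Plxna3 and chrX:156646624-156646923 (plus strand) for Plxnb3, with the same motifs in capitals.
Plxna3: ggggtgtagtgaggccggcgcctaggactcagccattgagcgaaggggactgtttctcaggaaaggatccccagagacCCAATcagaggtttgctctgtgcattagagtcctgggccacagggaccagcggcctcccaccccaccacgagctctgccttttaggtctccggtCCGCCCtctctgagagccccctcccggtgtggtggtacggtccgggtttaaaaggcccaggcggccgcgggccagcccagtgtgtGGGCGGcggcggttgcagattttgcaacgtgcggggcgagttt
Plxnb3: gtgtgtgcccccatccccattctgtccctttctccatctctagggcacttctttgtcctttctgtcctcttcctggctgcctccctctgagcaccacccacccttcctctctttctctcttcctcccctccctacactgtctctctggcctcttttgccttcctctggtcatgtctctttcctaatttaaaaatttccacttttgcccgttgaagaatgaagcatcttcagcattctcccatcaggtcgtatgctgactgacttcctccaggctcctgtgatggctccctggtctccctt
The Plxna3 window held 19 CG pairs, 2 GC boxes and 1 CCAAT box, and 74.3% of all promoters held fewer CG pairs. The Plxnb3 window held 2 CG pairs and none of the motifs, and 13.6% of all promoters held fewer.

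Among the ligands, Sema6c, a membrane semaphorin that binds a type A plexin, fell most. Its log2 CPM in MEC LDeep was 6.64, 6.50, 6.85, 7.67 and 6.99 at P2 and 3.49, 3.46, 3.48 and 3.77 at P45, and in LEC LII 6.46, 6.56, 6.47, 6.79 and 6.83 and 3.88, 3.71, 3.55 and 3.71. The ages did not overlap. The LFC was -2.26, -2.68, -2.51 and -2.41 in MEC LII, MEC LDeep, LEC LII and LEC LDeep (adjusted p of at most 1.18e-10), and the steps from P2 to P9 and from P9 to P23 passed in all 4. Sema4g, with LFCs of -1.87, -1.71, -1.63 and -0.87, Sema4c, a ligand of Plxnb2, with -1.29, -1.84, -1.43 and -1.27, and Sema3f, the ligand of Nrp2, with -1.18, -1.61, -1.38 and -1.52, fell in the same comparisons. So did Sema5b (-0.81, -0.71, -1.35 and -0.63) and, to a lesser extent, Sema4b (-0.43, -0.78, -0.31 and -0.56). Sema6d fell in 3 of the 4, but not in MEC LDeep (-0.21). Sema6b passed only in LEC LDeep (0.37).

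Sema7a, which acts through integrins and Plxnc1, led the rising semaphorins in LII of the MEC. Its log2 CPM in MEC LII was 6.11, 5.96, 4.82, 5.98 and 5.90 at P2 and 7.10, 7.43, 7.31 and 7.30 at P45, without overlap. The LFC was 1.14, 1.11, 0.59 and 0.88 in the order used above. Sema3e rose by 0.93, 0.89, 0.74 and 1.79, most in LEC LDeep, where it went from 4.16 ± 0.60 at P2 to 6.67 ± 0.47 at P23 (mean and SD, log2 CPM, n = 5 and n = 3). Sema3d rose in both layers of the MEC (0.71 and 0.93) and in LEC LDeep (0.69), Sema3g in MEC LII (0.67) and in LII and LDeep of the LEC (0.51 and 0.56), and Sema5a in both layers of the MEC (0.47 and 0.76). Sema4d rose in the deep layers only (0.82 and 0.44), with values of 0.13 and -0.28 in LII, but the layer-by-age difference did not pass in either region (adjusted p = 0.0807 and 0.051). Sema3a fell in LEC LDeep (-0.65), Sema4a fell in MEC LII (-0.46), Sema4f rose in LEC LDeep (0.41), and Sema3c passed in none of the 4 comparisons (from -0.52 to 0.22), although it had the largest layer difference. Of the genes counted apart, Plxdc1 rose by 2.49, 1.69, 0.79 and 1.57 and Plxdc2 by 0.48, 0.63, 0.68 and 1.06.

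Most called steps lay before P23. From P2 to P9, 12 members passed in MEC LII, 20 in MEC LDeep, 13 in LEC LII and 14 in LEC LDeep, beside 32%, 41.2%, 30.4% and 36.8% of all genes. From P9 to P23 the counts were 8, 15, 11 and 12, beside 36.1%, 36.1%, 37.6% and 41.9%. Without the doubted libraries the MEC counts were 11 in LII and 19 in LDeep from P2 to P9, beside 30.9% and 42.8% of all genes, and 11 and 17 from P9 to P23, beside 42.4% and 42.2%. From P23 to P45 the counts in the labelled groups were 0, 0, 1 and 0, beside 0.0648%, 0.154%, 0.212% and 0.114%, the exception being Sema3b in LEC LII (0.72, SE 0.15, adjusted p = 0.0428). At an unadjusted p below 0.05 the counts of this last step were 1, 5, 6 and 3. The share of all genes at that limit was not counted, so these counts are not read as changes of the members.

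**Figure D2:**
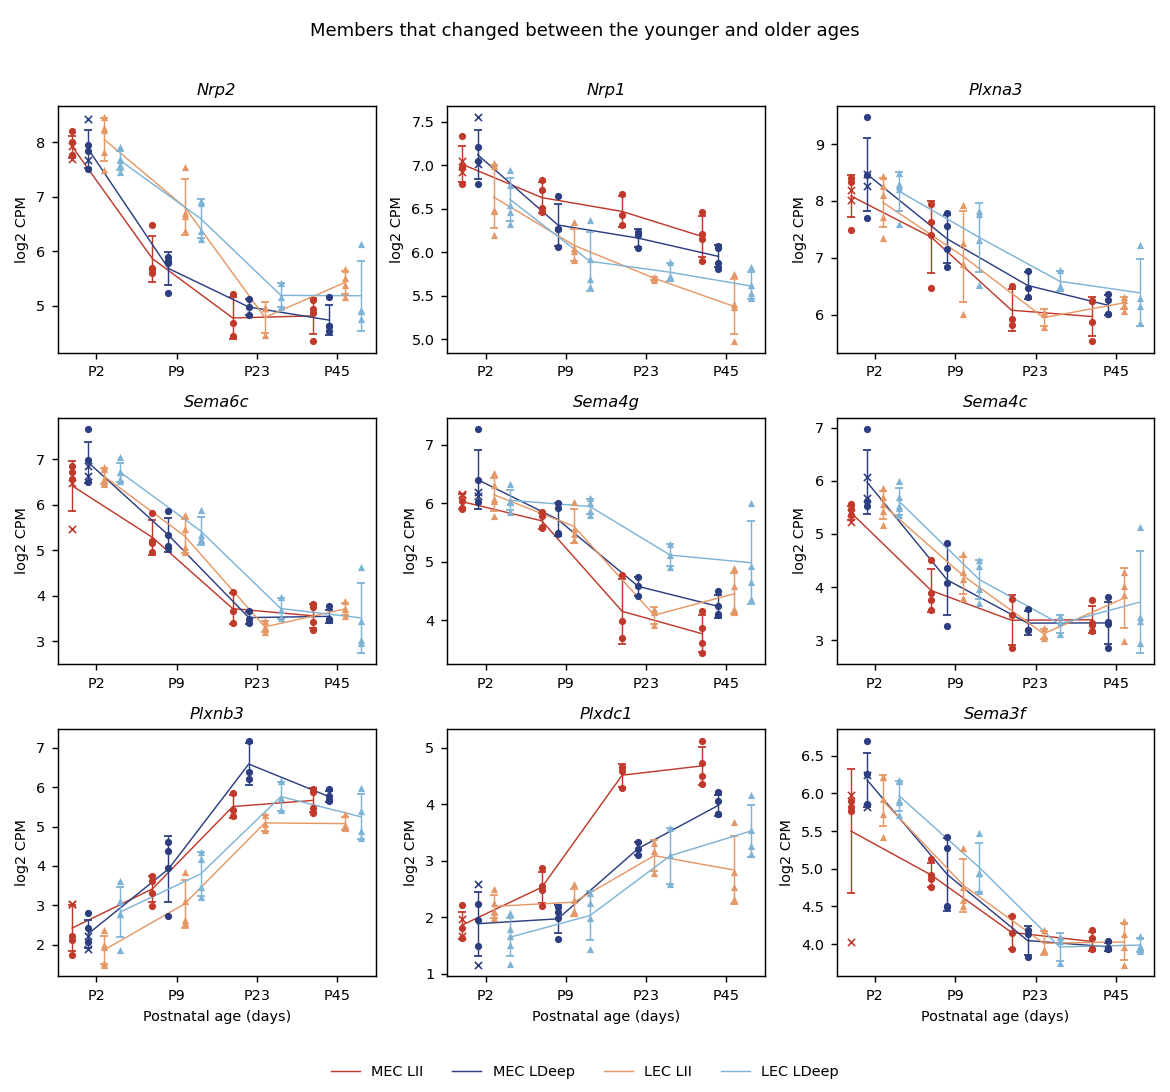
Log2 CPM (vertical axis) of 9 members at the 4 ages (horizontal axis), with 1 point per library, group means joined by lines and SDs as bars; circles are MEC, triangles LEC, and crosses the 4 MEC libraries of P2 replicates 1 and 3. Nrp2, Nrp1, Plxna3, Sema6c, Sema4g, Sema4c and Sema3f fall and Plxnb3 and Plxdc1 rise in all 4 combinations of region and layer, and none of their steps after P23 passed.

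The MEC, which holds grid cells, and the LEC were compared within each layer, with the 4 ages weighted equally. Sema7a, Sema3e, Nrp1 and Plxdc2 were higher in the MEC and Sema3a and Plxnd1 higher in the LEC, in both layers. In LII 9 members passed (6 higher in the MEC and 3 higher in the LEC), beside 12.6% of all genes (8.38% and 4.26%), and in LDeep 6 (4 and 2), beside 5.78% (2.81% and 2.97%). Without the doubted libraries the counts were 8 in each layer, beside 13.3% and 7.69%.

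Sema7a differed most among those higher in the MEC. At P45 its log2 CPM was 7.10, 7.43, 7.31 and 7.30 in MEC LII and 6.44, 6.67, 5.63 and 5.75 in LEC LII, and at P23 7.22, 7.26 and 7.16 in MEC LDeep and 6.40, 6.64 and 6.03 in LEC LDeep. No LEC library reached the lowest MEC library of its group. The LFC (MEC minus LEC) was 0.90 (SE 0.10, adjusted p = 2.54e-09) in LII and 0.76 (SE 0.10, adjusted p = 3.58e-07) in LDeep. Nrp1 had LFCs of 0.62 (SE 0.08, adjusted p = 2.00e-07) and 0.41 (SE 0.08, adjusted p = 7.77e-04), Sema3e of 0.70 (SE 0.16, adjusted p = 0.00131) and 0.64 (SE 0.15, adjusted p = 0.00234), and Plxdc2 of 0.33 and 0.51, in LII and LDeep. Plxnb3 (0.51) and Plxdc1 (0.80) were higher in the MEC in LII only, the Plxnb3 call being lost without the doubted libraries.

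Sema3a, the ligand of Nrp1, ran opposite to its receptor. At P9 it stood at 3.42, 3.44, 3.88 and 3.35 in MEC LDeep and 4.87, 4.93, 4.90 and 5.63 in LEC LDeep, and at P45 at 5.75, 5.42, 5.40 and 5.24 in MEC LII and 6.18, 6.13, 6.25 and 6.61 in LEC LII. The LEC was higher without overlap in each of these. Its LFC was -0.85 (SE 0.14, adjusted p = 1.32e-05) in LII and -0.99 (SE 0.15, adjusted p = 3.41e-06) in LDeep. Plxnd1 (-0.55 (SE 0.17, adjusted p = 0.0199) and -0.71 (SE 0.17, adjusted p = 0.00494)) was likewise opposite to its ligand Sema3e. Nrp2 was higher in LII of the LEC (-0.43, SE 0.13, adjusted p = 0.0183), and in LDeep its LFC of -0.37 passed only without the doubted libraries. The other class 3 genes (Sema3b, Sema3c, Sema3d, Sema3f and Sema3g) did not pass in either layer, nor did any semaphorin of classes 4, 5 and 6. Without the doubted libraries Sema3c passed in LDeep (0.48, SE 0.15, adjusted p = 0.0346). Beside these, 5 of 10 oligodendrocyte genes were higher in LDeep of the MEC (median LFC 0.63), and their part in the Plxnb3 value of LII, where 2 of 10 passed, was not tested.

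Whether age acted alike in both regions was tested as a difference of LFCs. In LII 1 member passed, beside 2.16% of all genes, namely Plxdc1. Its mean log2 CPM (± SD, n = 5 at P2 and n = 4 at P45) in MEC LII was 1.85 ± 0.24 at the first and 4.68 ± 0.34 at the last age, and in LEC LII 2.19 ± 0.20 and 2.83 ± 0.60, and the rise in the MEC exceeded that in the LEC by 1.66 (SE 0.27, adjusted p = 8.36e-05). In LDeep no member passed with edgeR, beside 0.575% of all genes, and none with DESeq2 or limma voom. In LDeep 6 members had an unadjusted p below 0.05, a limit at which the share of all genes was not counted. There, without the doubted libraries, Sema3e (-1.02), Sema4g (-0.91) and Sema4f (-0.53) passed, beside 1.76% of all genes. The layer difference itself did not differ between regions for any member with edgeR, beside 1.25% of all genes, or with DESeq2, beside 224 of 12521 genes. Limma voom called 1 (Plxdc1), beside 151 of 12521 genes. With edgeR 2 members had an unadjusted p below 0.05, again without a count over all genes. The edgeR count of members that passed was 1 without replicate 1 of P2 or replicate 2 of P45.

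**Figure D3:**
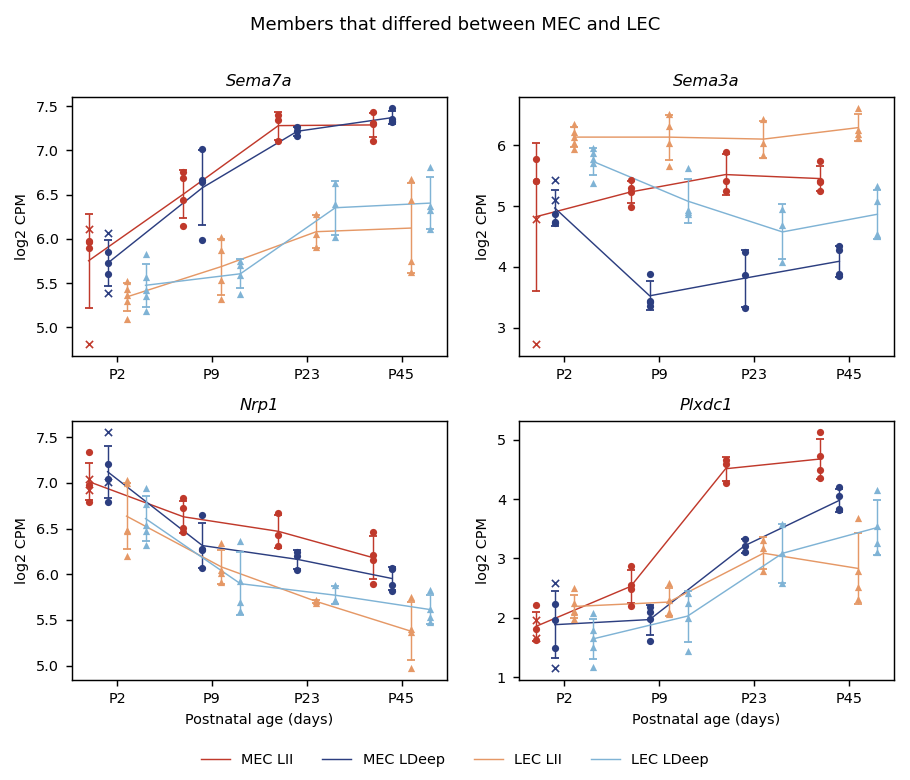
Log2 CPM (vertical axis) of Sema7a, Sema3a, Nrp1 and Plxdc1 at the 4 ages (horizontal axis), with 1 point per library, means joined by lines and SDs as bars; circles are MEC, triangles LEC, and crosses the 4 MEC libraries of P2 replicates 1 and 3. Sema7a and Nrp1 lie higher in the MEC, Sema3a higher in the LEC, and Plxdc1 rises furthest in MEC LII.

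Of 55 further genes of semaphorin signalling listed for comparison, 51 were in the files. Between layers 11 were higher and 13 lower in LII of the MEC, and 11 higher and 15 lower in LII of the LEC. Of all genes tested, 19.7% were higher and 18.3% lower in LII of the MEC, and 18.5% and 19.2% in the LEC. The largest differences were shared by both regions. Rhod stood at 1.60 (SE 0.46, adjusted p = 0.00707) in the MEC and 2.26 (SE 0.36, adjusted p = 5.65e-06) in the LEC, the VEGF receptor Kdr at 1.26 (SE 0.21, adjusted p = 2.89e-05) and 1.49 (SE 0.13, adjusted p = 5.55e-11), and Erbb2, a co-receptor of type B plexins, at 1.17 (SE 0.14, adjusted p = 3.00e-07) and 1.43 (SE 0.15, adjusted p = 3.87e-09). Those lowest in LII were Dpysl5, of the family of collapsin response mediators that relay Sema3a signals, at -0.99 and -0.78, the adhesion molecule Nfasc at -0.50 and -0.48, Dpysl4 in the MEC (-0.52) and Cntn2 in the LEC (-0.58).

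With age 11 of these genes rose and 25 fell in MEC LII, 13 and 26 in MEC LDeep, 8 and 25 in LEC LII, and 14 and 24 in LEC LDeep. Over all genes the shares that rose and fell were 33.6% and 31.2% in MEC LII, 31.5% and 33.5% in MEC LDeep, 32.6% and 32.5% in LEC LII, and 35.5% and 31.2% in LEC LDeep. The 3 largest falls among these genes in each comparison were those of the collapsin response mediators Dpysl3, Dpysl5 and Crmp1. In MEC LII, MEC LDeep, LEC LII and LEC LDeep the LFC was -4.88, -4.63, -4.84 and -4.02 for Dpysl3, -4.93, -3.65, -4.63 and -3.08 for Dpysl5 and -3.02, -2.95, -3.08 and -2.77 for Crmp1. Of the same family, Dpysl2 stood at -1.21, -0.83, -1.18 and -1.05 and Dpysl4 at -0.85, -0.87, -0.48 and -0.47. The largest rise was that of Mical2, whose family of oxidases acts on actin downstream of plexins, at 1.91, 1.60, 1.75 and 2.14. In the same order, the VEGF receptor gene Flt1 rose by 1.15, 1.21, 0.93 and 1.39 and the small GTPase gene Rnd2 by 1.02, 1.08, 1.11 and 1.05. Rras, another small GTPase gene, stood at 1.09 and 0.93 in LII of the MEC and LEC, and Sh3bp1, a GTPase regulator, at 1.61 in LEC LDeep. Between regions 3 genes were higher in MEC LII (Cntn2 at 0.65, Limk1 at 0.43 and Trpm2 at 0.34), 2 were higher in LEC LII (Met at -0.39 and Rhoa at -0.16), and Pak3 was higher in LEC LDeep (-0.30), beside 8.38%, 4.26% and 2.97% of all genes.

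**Figure D4:**
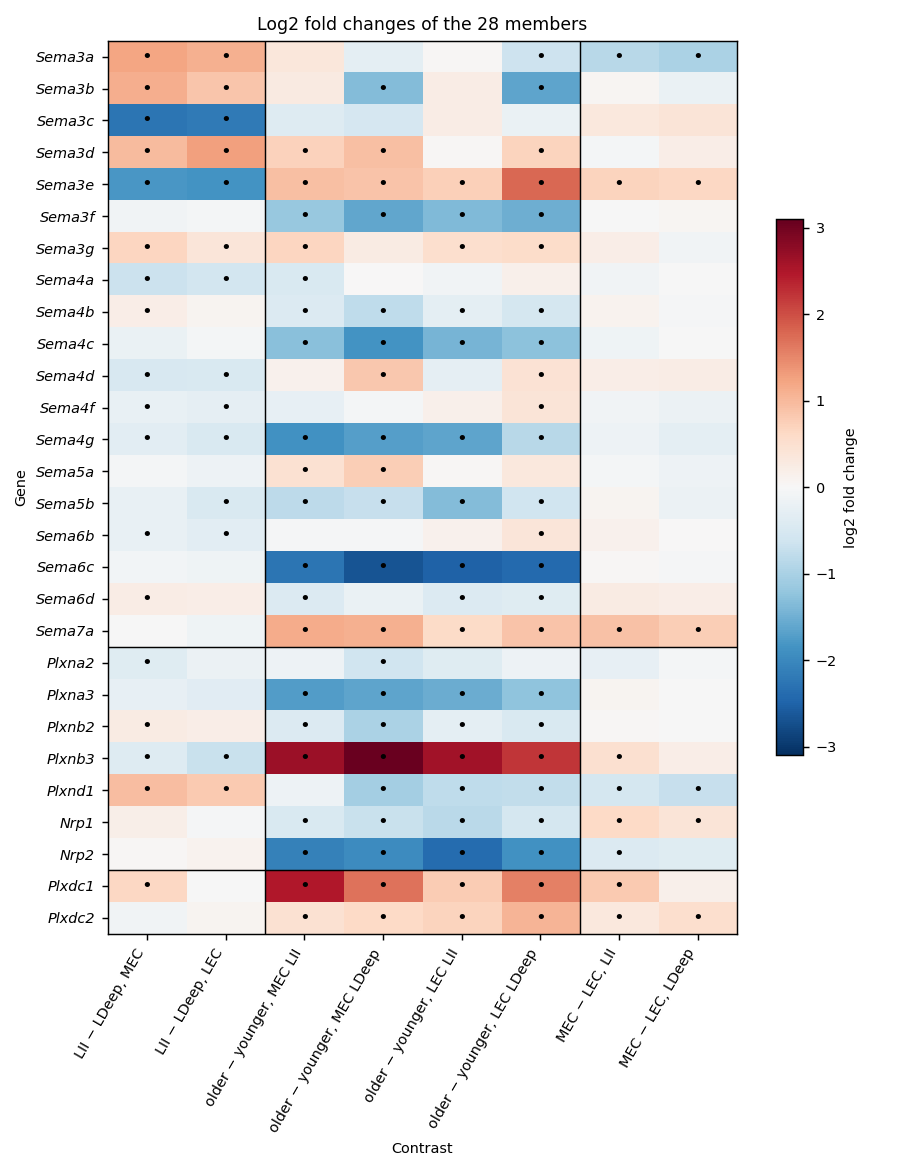
LFC (colour, from blue below 0 to red above 0) of the 28 members (rows; semaphorins above, receptors in the middle, Plxdc1 and Plxdc2 below) in the layer, age and region contrasts (columns), with a dot where the adjusted p was below 0.05. Sema3c and Sema3e are the darkest blue in the layer columns, Sema6c and Nrp2 in the age columns, and Plxnb3 is the darkest red there.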

How the data were processed

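Reads were demultiplexed with bcl2fastq 1.8.4, trimmed with Trimmomatic 0.33, aligned to Rn6 with STAR 2.4.0 and assigned to RefSeq genes with featureCounts (Subread 1.4.6-p1), per the paper's methods and the submitters' processing notes. The values the authors deposited are raw counts per gene for 64 libraries, on the reverse strand, with both ends mapped. Pairs that overlapped several genes were counted for each, and pairs that mapped to several places were not counted. Plxnb2 shares an exon on the same strand with Mir349, so its reads cannot be told apart from those of that gene.

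From these counts, edgeR 4.0.16 (R 4.3.3; TMM normalization, default filter on low counts, quasi-likelihood test) was fitted to the MEC (12341 genes) and the LEC (12255 genes) separately, with 8 means each, and to all 64 samples (12521 genes) for contrasts between regions. Adjusted p-values are Benjamini-Hochberg values over all genes of a fit, with a threshold of 0.05, and the standard error is the fold change divided by the root of the test statistic. Levels were computed as log2 CPM (prior count 2), and RPKM used exon length. The fits were tested on simulated data. Alternatives were DESeq2 1.42.0, limma 3.58.1 (voom), other filters and size factors, a replicate block, other sets of samples and each replicate left out. Library or group values are given for most members called with an absolute log2 fold change of at least 1. For Plxdc2, Sema3f, Sema4c, Sema4g and Sema5b, which also met this limit, fold changes are given. The 3 partner genes with the largest change in each direction are named. The members, markers and partner genes were chosen with earlier results of these data known. Replicate pairs differed by more than sampling noise (lowest chi-square per degree of freedom 3.08). Total counts per library limit the precision as given with the depth.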

Additional observations from a re-analysis of the deposited data

Results flagged for a closer look

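In 27 of 336 groups of 4 or 5 libraries, the highest or lowest value of a member stood apart from the rest by Dixon's test, where chance flags about 1 in 20. Values are log2 CPM, with the median of the other libraries in brackets. Standing high were Nrp2 6.49 in MEC LII P9 replicate 4 (5.68), Nrp2 5.15 in MEC LDeep P45 replicate 2 (4.63), Nrp2 6.14 in LEC LDeep P45 replicate 4 (4.90) and Plxna2 9.92 in MEC LDeep P2 replicate 4 (8.35). Also high were Plxna2 8.88 in LEC LDeep P45 replicate 4 (7.39), Plxnb3 5.31 in LEC LII P45 replicate 2 (4.98), Sema3a 5.63 in LEC LDeep P9 replicate 4 (4.90) and Sema3d 3.93 in MEC LDeep P2 replicate 1 (2.74). Further high values were Sema3f 4.04 in MEC LDeep P45 replicate 1 (3.94), Sema4a 5.50 in LEC LII P9 replicate 1 (5.16), Sema4d 6.63 in MEC LDeep P2 replicate 4 (5.31) and Sema4d 6.03 in MEC LDeep P45 replicate 3 (5.90). High as well were Sema6b 7.87 in MEC LDeep P2 replicate 4 (6.82), Sema6c 3.77 in MEC LDeep P45 replicate 4 (3.48) and Sema6c 5.89 in LEC LDeep P9 replicate 4 (5.24). Standing low were Plxdc2 6.26 in LEC LII P45 replicate 1 (6.62), Plxdc2 6.28 in LEC LDeep P45 replicate 1 (6.66), Sema3c 6.57 in MEC LDeep P45 replicate 4 (7.19) and Sema3c 5.50 in LEC LDeep P45 replicate 4 (6.87). Also low were Sema3d 3.09 in MEC LDeep P9 replicate 4 (3.47), Sema3d 2.45 in LEC LDeep P9 replicate 4 (3.31), Sema3f 4.03 in MEC LII P2 replicate 1 (5.86) and Sema4d 4.91 in LEC LII P9 replicate 3 (5.18). Further low values were Sema4f 5.87 in MEC LII P2 replicate 1 (6.33), Sema6c 5.47 in MEC LII P2 replicate 1 (6.64), Sema6d 6.34 in MEC LII P45 replicate 3 (6.94) and Sema7a 4.82 in MEC LII P2 replicate 3 (5.97). The libraries with 3 such values were LEC LDeep P45 replicate 4, LEC LDeep P9 replicate 4, MEC LDeep P2 replicate 4 and MEC LII P2 replicate 1, the last being among those with some markers that went against their labels.

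By a test of the difference itself (edgeR), the layer difference of Sema3b changed between younger and older ages by 1.62 in the MEC and 1.86 in the LEC, and that of Sema3e by -1.05 in the LEC, on the log2 scale. The change of Plxdc1 with age differed between the regions in LII by 1.66.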

How the results depend on the processing

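Of 192 member values that passed, 142 passed under every alternative, and of 90 values of at least 1 on the log2 scale 73 did. None of the 192 reversed. Counts of members passing that moved by over 1.5 times were these. Fitting only the samples of that age and region gave 0 members at P2 in the MEC, 13 at P23 in the LEC and 5 at P45 in the LEC. In these fits 1 of 11336, 2183 of 11424 and 872 of 11438 genes passed in turn. Without the MEC libraries of P2 replicates 1 and 3 there were 9 members for the layer at P2 in the MEC, 4 for layer by age in the MEC, 1 for layer by region and 3 for age by region in LDeep. The shares of all genes there were 15.8%, 6.53%, 1.95% and 1.76% in turn. For layer by age in the MEC, DESeq2 gave 3, limma voom 3 and all 64 samples in 1 fit 2, and in the LEC DESeq2 gave 5, at least 10 counts in every sample 1 and all 64 samples in 1 fit 1. Of all genes, 656 of 12341, 459 of 12341 and 658 of 12521 passed in these MEC fits. In the LEC fits 609 of 12255, 270 of 9886 and 279 of 12521 did. Limma voom gave 1 for layer by region, beside 151 of 12521 genes. Leaving out each replicate gave 1 to 5 members at P2 in the MEC, 3 to 6 at P2 in the LEC, 3 to 8 at P9, 3 to 12 at P23 and 4 to 11 at P45 in the MEC, 5 to 12 at P45 in the LEC, 11 to 18 for the layer in the MEC, 1 to 3 for layer by age in either region and 0 to 1 for layer by region. The share of all genes is not given for these fits, so whether the moves are particular to the members cannot be told. Same-numbered samples deviated together more than others, though only in part (mean r 0.13 to 0.14, 17 to 20 of 32 pairs over 0.1, against -0.0452 to -0.0391 and 18 to 22 of 100 pairs with different numbers). The labels name no shared animal, and the main fits did not use the numbers, so they treated all samples as separate. With the replicate block, layer by age gave 4 members in the MEC and 5 in the LEC, layer by region 1 and age by region in LII 2. Of all genes, 560 of 12341, 627 of 12255, 286 of 12521 and 424 of 12521 passed in turn. The cause of these moves was not tested. Each single age rests on 3 to 5 libraries per layer.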
